A study of Mus musculus with 8 samples.

Results

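The TGF-beta and BMP pathway was examined as a set of 45 genes, chosen by symbol for their roles as ligands, latent complex and matrix proteins, extracellular antagonists, receptors, Smads and Id targets, out of 41325 genes listed in each of 8 RNA-seq libraries. The libraries came from C3H10T1/2 cells, a mouse mesenchymal stem cell line, that carried a control shRNA (shControl) or an shRNA against the histone H3 lysine 9 demethylase KDM4D (shKDM4D), the transcription factor NFIB (shNFIB) or the histone H3 lysine 4 methyltransferase MLL1 (shMLL1). Each line was sequenced once at day 0, in post-confluent cells before induction, and once at day 5 of adipogenic differentiation started with insulin, dexamethasone and isobutylmethylxanthine in serum. The study asked which genes depend on these 3 factors while the cells turn into adipocytes, and the comparisons are day 5 with day 0 in each line and each knockdown with shControl on the same day. The knockdown lines were puromycin-selected pLKO.1 clones, and the study's methods do not describe how the shControl cells were made. The labels do not say which clone or which shRNA was sequenced. An effect of a knockdown and a property of its clone therefore cannot be told apart. With 1 library per condition there was no replicate, no test and no standard deviation. The genes were chosen with earlier results of these data known. In what follows a gene rose or fell where its RPKM (reads of a gene per kilobase of its exons, scaled to the mapped reads of the library) differed by more than 2-fold and reached 1 in at least 1 library, and the values in parentheses after a log2 ratio bound its 95% interval, which covers the error of counting reads and not the spread between cultures. Paired RPKM values are those of day 0 and day 5, in that order, and 4 ratios given without names belong to shControl, shKDM4D, shNFIB and shMLL1.

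TGF-beta, activin and BMP ligands are secreted dimers that assemble type I and type II receptor kinases at the cell surface. TGF-beta and activin receptors phosphorylate SMAD2 and SMAD3, BMP receptors phosphorylate SMAD1, SMAD5 and SMAD9, and both groups enter the nucleus with SMAD4 to regulate genes such as the inhibitory Smads and the Id genes, which dampen or carry the response. In mesenchymal progenitors TGF-beta is known as an inhibitor of adipocyte differentiation, BMP4 and BMP2 as ligands that can commit C3H10T1/2 cells to the adipocyte lineage, and activin A as a factor of proliferating progenitors.

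The libraries held 15842221 to 38202580 mapped reads, and 3 reads, taken as the limit that a count of 0 allows, equal an RPKM of 0.0785 to 0.189 for a transcript of 1 kb. Nfib was at 2.31 and 3.38 in shNFIB against 9.92 and 17.0 in shControl at day 0 and day 5, and Kmt2a, which encodes MLL1, at 2.00 and 1.63 in shMLL1 against 5.17 and 5.27. Kdm4d had only 1 and 4 reads in shKDM4D against 2 and 13 in shControl, too few to check the label at day 0, with log2 ratios of -0.55 (-6.44 to 3.71) and -1.86 (-3.94 to -0.17). Of 9 mesenchymal and fibroblast markers, 8 exceeded an RPKM of 1 in every library, and the other one, Thy1, lay at 11.1 to 25.0 in shControl and shMLL1 but at 0.0171 to 0.139 in shKDM4D and shNFIB. The 8 adipocyte markers summed to an RPKM of 831 in shControl at day 5, with 8 over 1, against 39.1 in shKDM4D (6 over 1), 12.1 in shNFIB (2 over 1) and 12.5 in shMLL1 (3 over 1), and to 4.12 to 10.95 at day 0, where 1 or 2 were over 1 and Plin1, Cidec, Cfd or Adipoq were at 0 in 1 or more libraries. Reads of 2 rRNA-like genes made up 7.95% to 10.5% of a day 0 library and 3.07% to 3.62% of a day 5 library. In bulk RNA fewer cells of a type and less RNA per cell cannot be told apart, and the part of the adipocyte share, of the rRNA-like reads and of the clone in the values below was not tested beyond the values given.

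Promoter sequences are shown for 5 of the members that moved the same way over time in all 4 lines. Upstream windows of 250 bases were available for 32 of the 45 members (RefSeq, build GRCm38.p6). They were searched for CAGAC, the Smad-binding box, on both strands (GTCTG on the printed strand), for GGCGCC, a GC-rich box bound by BMP Smads that reads alike on both strands, and for TTGGC, the core of the NFI site, on both strands (GCCAA on the printed strand). A TTGGC can run into a GGCGCC and share 3 letters with it. Capitals below mark the Smad-binding box on either strand and GGCGCC. The windows are chr1:186705990-186706239 (minus strand) for Tgfb2 (ENSMUSG00000039239.14, chromosome 1, 186622792 to 186705989, minus strand), chr13:16011601-16011850 (plus strand) for Inhba (ENSMUSG00000041324.14, chromosome 13, 16011851 to 16031621, plus strand), chr1:119422249-119422498 (minus strand) for Inhbb (ENSMUSG00000037035.5, chromosome 1, 119415465 to 119422248, minus strand), chr13:56609336-56609522 (plus strand) for Tgfbi (ENSMUSG00000035493.10, chromosome 13, 56609523 to 56639562, plus strand), ended at the first annotated exon, and chr2:113758649-113758898 (minus strand) for Grem1 (ENSMUSG00000074934.3, chromosome 2, 113746164 to 113758646, minus strand), each 5′ to 3′ on the strand of the gene.
Tgfb2: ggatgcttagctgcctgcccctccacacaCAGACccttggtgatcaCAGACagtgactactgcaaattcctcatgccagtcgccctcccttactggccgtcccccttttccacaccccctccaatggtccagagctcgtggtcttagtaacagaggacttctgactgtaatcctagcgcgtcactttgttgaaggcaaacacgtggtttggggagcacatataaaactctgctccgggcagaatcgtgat
Inhba: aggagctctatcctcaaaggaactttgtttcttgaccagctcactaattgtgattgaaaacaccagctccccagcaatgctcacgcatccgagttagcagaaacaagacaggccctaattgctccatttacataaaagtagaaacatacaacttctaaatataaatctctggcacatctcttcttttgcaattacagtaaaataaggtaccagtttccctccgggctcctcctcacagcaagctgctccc
Inhbb: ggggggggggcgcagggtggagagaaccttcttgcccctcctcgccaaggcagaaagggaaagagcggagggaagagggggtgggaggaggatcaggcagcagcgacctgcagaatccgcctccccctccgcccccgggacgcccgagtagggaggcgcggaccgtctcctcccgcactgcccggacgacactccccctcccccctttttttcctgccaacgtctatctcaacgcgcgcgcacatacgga
Tgfbi: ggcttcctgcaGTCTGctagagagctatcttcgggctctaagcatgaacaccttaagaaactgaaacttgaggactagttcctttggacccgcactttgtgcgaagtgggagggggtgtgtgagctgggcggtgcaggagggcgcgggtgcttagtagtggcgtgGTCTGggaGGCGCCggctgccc
Grem1: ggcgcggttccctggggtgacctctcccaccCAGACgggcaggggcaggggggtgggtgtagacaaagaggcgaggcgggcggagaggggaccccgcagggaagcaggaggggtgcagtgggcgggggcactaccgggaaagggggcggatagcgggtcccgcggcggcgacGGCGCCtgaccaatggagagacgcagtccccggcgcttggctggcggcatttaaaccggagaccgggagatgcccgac
CAGAC or its complement stood in the windows of Tgfb2, Tgfbi and Grem1, GGCGCC in those of Tgfbi and Grem1, and neither in those of Inhba and Inhbb. The 32 members had 39 windows, and a member was counted if any of its windows held the letters. Among them 17 held CAGAC, 9 held GGCGCC and 19 held TTGGC, or 53.1%, 28.1% and 59.4%, against 42.2%, 9.59% and 41.5% of 32851 windows of all genes. The windows of all genes were counted singly, so members with several windows raise the members' shares and the contrast is not like for like. The median GC content was 64% in the members' windows and 52.4% in all windows, and these shares were not adjusted for it. The full NFI site was in no member's window and in 0.0365% of all windows. A match to these letters is no evidence of binding, and no match says only that the letters are not in this window.

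Of the 45 members, 34 exceeded an RPKM of 1 in at least 1 library and 11 did not. Over the 5 days from induction Grem1, a BMP antagonist, lost most of its mRNA in every line. The activin subunits Inhba and Inhbb, the feedback inhibitors Smad7 and Skil and the latency protein Ltbp1 fell with it, and Tgfb2 and the matrix gene Tgfbi rose. These 8 genes passed 2-fold in the same direction in all 4 lines. The 2 that rose were 5.88% of the 34, near the 6.93% of all genes tested that did so. The 6 that fell were 17.6%, against 2.48% of all genes. Because the list was chosen with earlier results of these data known, its shares are descriptions and test no enrichment. Tgfb2 in shNFIB missed the limit under each of 4 other scalings, and Smad7 in shControl and shKDM4D and Ltbp1 in shKDM4D missed it after division by Gapdh. With 1 added to each RPKM, which shrinks the ratios of low genes, the limit was also missed by Inhba in shMLL1, at -0.88, by Inhbb in shControl, shKDM4D and shMLL1, at -0.81 to -0.71, by Smad7 in shControl and shKDM4D, at -0.82 and -0.99, and by Tgfb2 in shControl and shNFIB, at 0.995 and 0.94. In shControl 7 members rose and 8 fell, which is 20.6% and 23.5% of the 34 against 13.0% and 8.56% of the 11513 genes tested. In shKDM4D 6 rose and 8 fell, 17.6% and 23.5% of the 34 against 12.8% and 8.44% of all genes. In shNFIB 2 rose and 6 fell, 5.88% and 17.6% of the 34 against 12.6% and 4.96% of all genes, so the share that rose lay below the background there. In shMLL1 6 rose and 7 fell, 17.6% and 20.6% against 20.4% and 6.89%, and only the share that fell exceeded the background. The median log2 ratio of the 34 members was 0.04, -0.08, -0.24 and 0.00 in shControl, shKDM4D, shNFIB and shMLL1, against 0.03, 0.03, 0.09 and 0.17 over all genes tested. Divided by the RPKM of Gapdh, the split of members that rose and fell became 8 and 4 in shKDM4D, where 23.5% and 4.28% of all genes then rose and fell, and 1 and 10 in shNFIB, where 7.30% and 17.5% did, so the genes as a whole shifted with that scaling.

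**Figure D1:**
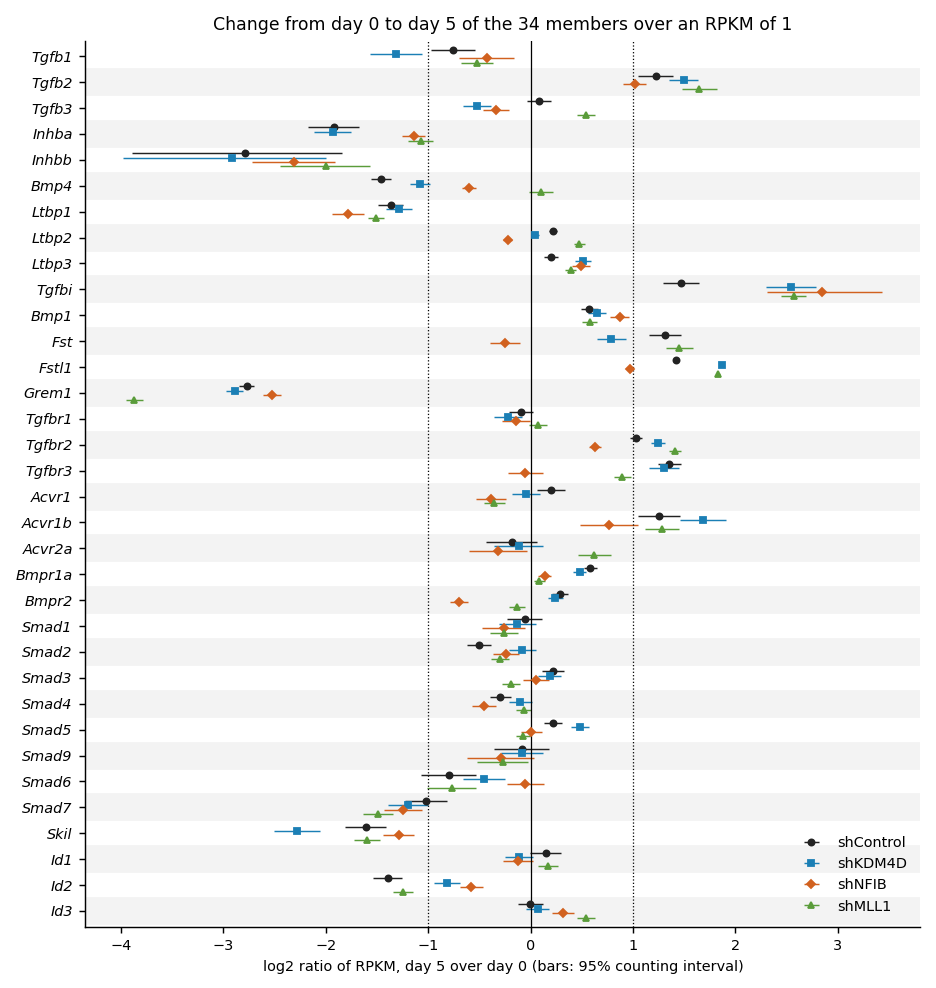
Log2 ratio of RPKM, day 5 over day 0, for the 34 members over an RPKM of 1, with 1 point per line and the 95% counting interval as a bar; dotted lines mark 2-fold. Grem1, Inhba, Inhbb, Ltbp1, Smad7 and Skil lie left of the lower line in all 4 lines, Tgfb2 and Tgfbi right of the upper one, and the receptor-regulated and common Smads stay between -0.50 and 0.48.

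**Figure D2:**
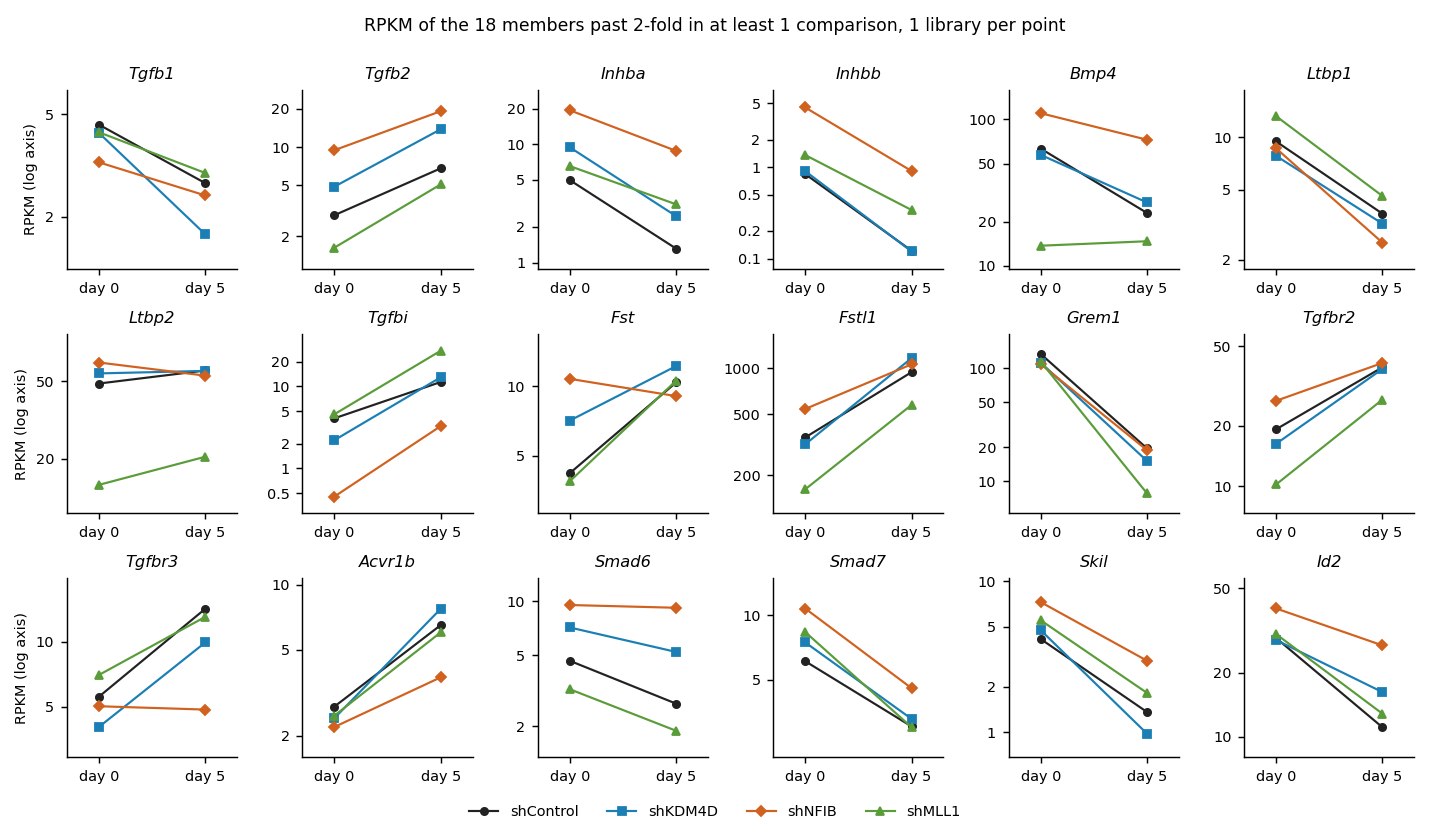
RPKM on a log axis at day 0 and day 5 of the 18 members that passed 2-fold in at least 1 comparison; each point is 1 library and each colour 1 line. The shNFIB library is the highest of the 4 for Tgfb2, Inhba, Inhbb, Bmp4, Smad6, Smad7, Skil and Id2 on both days and the lowest for Tgfbi, and the shMLL1 library is the lowest for Ltbp2, Fstl1 and Tgfbr2 on both days.

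Among the ligands, Bmp4 had the highest RPKM at day 0 in shControl, shKDM4D and shNFIB, and Tgfb3, which encodes TGF-beta 3, about equalled it in shMLL1. Bmp4 stood at 63.2 and 23.0 in shControl, 57.3 and 27.1 in shKDM4D, 110.3 and 72.7 in shNFIB, and 13.8 and 14.7 in shMLL1 at day 0 and day 5. The shNFIB libraries were the highest and the shMLL1 libraries the lowest on both days. Bmp4 fell over time in shControl, with a log2 ratio of -1.46 (-1.56 to -1.36), and in shKDM4D, with -1.08 (-1.18 to -0.98). The corresponding ratios were -0.60 (-0.67 to -0.53) in shNFIB and 0.10 (-0.01 to 0.22) in shMLL1, where the day 0 level was already below the day 5 level of shControl. The change in shMLL1 exceeded that in shControl by 1.56 (1.41 to 1.71) on the log2 scale, and the change in shNFIB exceeded it by 0.86 (0.74 to 0.98). Against shControl on the same day, Bmp4 was 4.60-fold lower in shMLL1 at day 0, with a log2 ratio of -2.20 (-2.30 to -2.11), and 3.16-fold higher in shNFIB at day 5, with 1.66 (1.55 to 1.77). Divided by Gapdh, the time change of Bmp4 was -0.61 in shKDM4D and -1.17 in shNFIB, so these 2 lines change sides of the 2-fold limit with that scaling.

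The 3 TGF-beta genes did not move together. Tgfb2, the ligand of the set that rose in every line, was measured at 2.92 and 6.81 in shControl, 4.89 and 13.8 in shKDM4D, 9.45 and 19.1 in shNFIB, and 1.62 and 5.09 in shMLL1. At both days shNFIB was the highest, shKDM4D the next, then shControl, and shMLL1 the lowest, and no interval of a ratio to shControl reached 0. The rise had log2 ratios of 1.22 (1.05 to 1.39) in shControl, 1.496 (1.36 to 1.64) in shKDM4D, 1.02 (0.90 to 1.13) in shNFIB and 1.65 (1.48 to 1.82) in shMLL1. In shNFIB it passed 2-fold narrowly, and it was 0.91 to 0.97 after quantile normalization, after median-of-ratios scaling or without the rRNA-like genes and 0.45 after division by Gapdh. Over shControl, Tgfb2 was 3.24-fold higher in shNFIB at day 0, log2 ratio 1.70 (1.53 to 1.86), and 2.81-fold at day 5, 1.49 (1.37 to 1.61). In shKDM4D it was 2.03-fold higher at day 5, with 1.02 (0.89 to 1.14), the only ratio of that line to its control past 2-fold among the members. Tgfb1, the best studied isoform, was at 4.56 and 2.70 in shControl, 4.23 and 1.71 in shKDM4D, 3.25 and 2.42 in shNFIB, and 4.26 and 2.95 in shMLL1. All 4 lines were lower at day 5, and the change passed 2-fold in shKDM4D alone, with -1.31 (-1.57 to -1.06), or -0.84 after division by Gapdh. The change in shKDM4D differed from that in shControl by -0.55 (-0.88 to -0.23). Tgfb3 ranged from 11.1 to 20.2 and passed 2-fold nowhere, its time ratios running from -0.52 in shKDM4D to 0.54 in shMLL1.

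The activin beta subunits fell in all lines and were higher in shNFIB. Inhba, which encodes the subunit of activin A, had RPKM values of 4.98 and 1.31 in shControl, 9.43 and 2.47 in shKDM4D, 19.4 and 8.79 in shNFIB, and 6.54 and 3.11 in shMLL1. Its level in shNFIB at day 5 exceeded that of shControl at day 0. Inhba fell with log2 ratios of -1.92 (-2.18 to -1.68) in shControl and -1.93 (-2.11 to -1.76) in shKDM4D and by less in shNFIB, -1.14 (-1.25 to -1.03), and shMLL1, -1.07 (-1.20 to -0.95). Compared with shControl, Inhba in shNFIB was 3.90-fold higher at day 0, 1.96 (1.85 to 2.08), and 6.70-fold at day 5, 2.74 (2.50 to 2.995). In shMLL1 it was 2.37-fold higher at day 5, 1.24 (0.998 to 1.498), which became 0.89 after division by Gapdh. The shKDM4D ratios of 0.92 (0.79 to 1.05) and 0.91 (0.64 to 1.19) stayed under 2-fold. Inhbb, which encodes the subunit of activin B, was scarce outside shNFIB, at 0.838 and 0.122 in shControl, 0.902 and 0.120 in shKDM4D, 4.48 and 0.905 in shNFIB, and 1.35 and 0.339 in shMLL1. Its reads numbered 10, 11, 61 and 55 at day 5 in the same order of lines, so its ratios are less precise than those of Inhba. Inhbb fell with -2.79 (-3.89 to -1.84), -2.92 (-3.98 to -1.99), -2.31 (-2.72 to -1.91) and -1.997 (-2.45 to -1.56) in these lines. In shNFIB it exceeded shControl 5.35-fold at day 0, 2.42 (2.09 to 2.76), and 7.44-fold at day 5, 2.90 (1.92 to 4.03). The shMLL1 ratio at day 5 was 1.48 (0.49 to 2.62), so its interval reached well below 2-fold.

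Latent TGF-beta is held in the matrix by latent TGF-beta binding proteins, and this group split by gene. Ltbp1 was at 9.44 and 3.66 in shControl, 7.81 and 3.21 in shKDM4D, 8.62 and 2.51 in shNFIB, and 13.2 and 4.62 in shMLL1, lower at day 5 in every line. It fell with log2 ratios of -1.37 (-1.49 to -1.25), -1.28 (-1.41 to -1.15), -1.78 (-1.94 to -1.63) and -1.51 (-1.59 to -1.43) in shControl, shKDM4D, shNFIB and shMLL1, and division by Gapdh brought the shKDM4D value to -0.81. Ltbp2, which binds no latent TGF-beta but sits on elastic microfibrils, was at 48.6 and 56.6 in shControl, 54.7 and 56.4 in shKDM4D, 62.2 and 53.3 in shNFIB, and 14.7 and 20.5 in shMLL1. The 6 libraries of the other lines lay between 48.6 and 62.2, and both shMLL1 libraries lay far below them. Ltbp2 in shMLL1 was 3.30-fold lower than shControl at day 0, -1.72 (-1.77 to -1.67), and 2.76-fold lower at day 5, -1.47 (-1.51 to -1.42). No other member was lower than shControl by more than 2-fold on both days in shMLL1. Ltbp3, which carries latent TGF-beta, ranged from 20.4 to 30.5 and passed 2-fold nowhere, and Bmp1, a protease that processes procollagen and frees ligands from antagonists, was higher at day 5 in the 4 lines with ratios of 0.57 to 0.87, under 2-fold.

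Tgfbi encodes a secreted matrix protein induced by TGF-beta, and it had the largest rise of any member over an RPKM of 1. Its RPKM was 4.08 and 11.3 in shControl, 2.21 and 12.9 in shKDM4D, 0.455 and 3.28 in shNFIB, and 4.57 and 27.2 in shMLL1. The shNFIB libraries were the lowest on both days and the shMLL1 library the highest at day 5. The rise had log2 ratios of 1.47 (1.30 to 1.64) in shControl, 2.54 (2.30 to 2.79) in shKDM4D, 2.85 (2.31 to 3.44) in shNFIB and 2.57 (2.45 to 2.69) in shMLL1. In each knockdown line the rise exceeded that of shControl, by 1.07 (0.78 to 1.37), 1.38 (0.82 to 1.95) and 1.10 (0.89 to 1.31), and these 3 differences share the shControl libraries. Despite the rise, shNFIB stayed 8.98-fold below shControl at day 0, -3.17 (-3.73 to -2.65), and 3.45-fold below at day 5, -1.78 (-2.02 to -1.56). In shMLL1 Tgfbi was 2.40-fold above shControl at day 5, 1.26 (1.16 to 1.37), or 0.91 after division by Gapdh.

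The antagonists held the largest fall of any tested member in a single line, that of Grem1 in shMLL1, and the most abundant transcript of the set, Fstl1. Grem1 encodes gremlin 1, which binds BMP2 and BMP4 outside the cell. Its RPKM was 133 and 19.5 in shControl, 112 and 15.1 in shKDM4D, 108 and 18.8 in shNFIB, and 114 and 7.80 in shMLL1. The 4 day 0 libraries lay close together and all 4 day 5 libraries lay below them. Grem1 fell 6.84-fold in shControl, log2 ratio -2.77 (-2.85 to -2.70), 7.40-fold in shKDM4D, -2.89 (-2.97 to -2.81), 5.76-fold in shNFIB, -2.53 (-2.61 to -2.44), and 14.6-fold in shMLL1, -3.87 (-3.96 to -3.79). The change in shMLL1 differed from that in shControl by -1.10 (-1.21 to -0.99) on the log2 scale, and Grem1 there was 2.50-fold below shControl at day 5, -1.32 (-1.43 to -1.21), after a day 0 ratio of -0.22 (-0.25 to -0.19). At day 5 the 8 adipocyte markers summed to 831 in shControl, 12.1 in shNFIB and 12.5 in shMLL1. Whether the fall of Grem1 depends on the share of adipocytes was not tested. Fst encodes follistatin, which binds activins. It stood at 4.19 and 10.4 in shControl, 7.09 and 12.2 in shKDM4D, 10.8 and 9.06 in shNFIB, and 3.86 and 10.6 in shMLL1. From day 0 to day 5 it rose in shControl, 1.31 (1.15 to 1.47), and shMLL1, 1.45 (1.33 to 1.58), and had a ratio of 0.79 (0.65 to 0.93) in shKDM4D and of -0.25 (-0.40 to -0.10) in shNFIB. The shNFIB library was the highest of the 4 at day 0, at 2.57-fold over shControl, 1.36 (1.21 to 1.52), and the lowest at day 5, at -0.20 (-0.34 to -0.05), and its change differed from that of shControl by -1.56 (-1.77 to -1.35). Fstl1, a secreted follistatin-like glycoprotein reported to modulate BMP signalling, was the most abundant member, at 353 and 942 in shControl, 318 and 1164 in shKDM4D, 541 and 1060.3 in shNFIB, and 161 and 575 in shMLL1. It rose with ratios of 1.42 (1.40 to 1.43), 1.87 (1.85 to 1.89) and 1.83 (1.81 to 1.85) in shControl, shKDM4D and shMLL1, and 0.97 (0.95 to 0.99) in shNFIB fell just short of 2-fold. In shMLL1 Fstl1 was below shControl on both days, by 2.18-fold at day 0, -1.13 (-1.15 to -1.11), and by 1.64-fold at day 5, -0.71 (-0.72 to -0.70), and only the former passed 2-fold.

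Of 10 receptors 8 exceeded an RPKM of 1, and of these Tgfbr2, Tgfbr3 and Acvr1b passed 2-fold in at least 1 comparison. Tgfbr2, the type II receptor that binds TGF-beta, was at 19.3 and 39.3 in shControl, 16.3 and 38.6 in shKDM4D, 26.7 and 41.4 in shNFIB, and 10.2 and 27.1 in shMLL1. All lines were higher at day 5. It rose in shControl, 1.03 (0.97 to 1.09), shKDM4D, 1.25 (1.18 to 1.31), and shMLL1, 1.41 (1.35 to 1.47), and its ratio was 0.63 (0.57 to 0.69) in shNFIB, from the highest day 0 level of the 4 lines. The shControl value was 0.92 to 0.98 after quantile normalization, after median-of-ratios scaling or without the rRNA-like genes. Tgfbr3 encodes betaglycan, the co-receptor that presents TGF-beta 2. It was at 5.56 and 14.2 in shControl, 4.03 and 9.93 in shKDM4D, 5.03 and 4.85 in shNFIB, and 7.02 and 13.1 in shMLL1. It rose in shControl, 1.35 (1.24 to 1.47), and shKDM4D, 1.30 (1.16 to 1.45), reached 0.90 (0.81 to 0.98) in shMLL1, and had a ratio of -0.05 (-0.22 to 0.12) in shNFIB, so that the shNFIB change differed from that of shControl by -1.41 (-1.61 to -1.20). At day 5 Tgfbr3 was 2.93-fold lower in shNFIB than in shControl, -1.55 (-1.70 to -1.41), after -0.15 (-0.29 to 0.001) at day 0. Acvr1b, a type I receptor of activin, was at 2.73 and 6.51 in shControl, 2.41 and 7.75 in shKDM4D, 2.19 and 3.73 in shNFIB, and 2.48 and 6.03 in shMLL1. It rose with 1.26 (1.05 to 1.46), 1.69 (1.46 to 1.91) and 1.28 (1.12 to 1.45) in shControl, shKDM4D and shMLL1, the last being 0.97 after quantile normalization, and had 0.76 (0.49 to 1.05) in shNFIB. Each of these 3 genes had its lowest time ratio in shNFIB, and none of the 3 passed 2-fold there.

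The other 5 receptors over an RPKM of 1 passed 2-fold in no comparison. Bmpr1a, the type I receptor most used by BMP4, was the most abundant of them, at 24.5 and 36.8 in shControl, 27.2 and 37.9 in shKDM4D, 33.3 and 36.7 in shNFIB, and 21.3 and 22.6 in shMLL1. Its ratio to shControl at day 5 was -0.70 (-0.76 to -0.64) in shMLL1, and the other 5 knockdown ratios lay between -0.20 and 0.44. Bmpr2, the BMP type II receptor, was at 5.55 and 6.79 in shControl, 7.40 and 8.75 in shKDM4D, 8.87 and 5.45 in shNFIB, and 4.02 and 3.67 in shMLL1. It went from 0.68 (0.60 to 0.75) against shControl in shNFIB at day 0 to -0.32 (-0.41 to -0.22) at day 5, and in shMLL1 it was below shControl on both days, -0.47 (-0.54 to -0.39) and -0.89 (-0.97 to -0.81). Tgfbr1, the TGF-beta type I receptor, stayed between 5.71 and 8.38, and Acvr1, a type I receptor of BMPs, between 7.08 and 10.7. Acvr2a, an activin type II receptor, was highest in shMLL1 at day 5, at 3.54, with 0.84 (0.62 to 1.07) over shControl.

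The Smads that carry the signal stayed level by comparison with the ligands. The 6 receptor-regulated and common Smads passed 2-fold in none of the 10 comparisons, and their time ratios ran from -0.50 for Smad2 in shControl to 0.48 for Smad5 in shKDM4D. Smad2 and Smad3, which transmit TGF-beta and activin signals, had RPKM values of 18.5, 13.9, 18.1 and 19.0 and 10.5, 10.999, 10.4 and 10.9 at day 0 in shControl, shKDM4D, shNFIB and shMLL1, and of 13.1, 13.1, 15.3 and 15.4 and 12.2, 12.5, 10.8 and 9.57 at day 5. Smad4, the common partner, was at 20.8, 16.8, 22.4 and 21.4 at day 0 and 17.0, 15.7, 16.3 and 20.4 at day 5. Smad1 and Smad5, which transmit BMP signals, ranged from 3.22 to 4.05 and from 11.2 to 17.0. Smad9, the third BMP Smad, was at 2.06 and 1.94 in shControl, 3.77 and 3.56 in shKDM4D, 1.92 and 1.56 in shNFIB, and 1.43 and 1.18 in shMLL1, highest in shKDM4D on both days, with 0.87 (0.65 to 1.10) and 0.88 (0.63 to 1.13) over shControl, under 2-fold.

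The inhibitory Smads and the corepressor Skil are switched on by the pathway and restrain it, and all 3 were highest in shNFIB. Smad7, which blocks TGF-beta and BMP receptors, was at 6.09 and 3.01 in shControl, 7.47 and 3.26 in shKDM4D, 10.8 and 4.55 in shNFIB, and 8.36 and 2.98 in shMLL1. It fell in the 4 lines, with -1.02 (-1.23 to -0.81), -1.19 (-1.39 to -0.9997), -1.24 (-1.43 to -1.06) and -1.49 (-1.64 to -1.34). The shControl value sat at the 2-fold limit and was -0.99 after division by Gapdh or with 0.1 added to each RPKM, and the shKDM4D value was -0.73 after division by Gapdh. In shNFIB Smad7 stayed under 2-fold over shControl, at 0.82 (0.68 to 0.97) and 0.60 (0.36 to 0.84). Smad6, which mainly restrains BMP receptors, was at 4.65 and 2.68 in shControl, 7.14 and 5.21 in shKDM4D, 9.53 and 9.20 in shNFIB, and 3.23 and 1.89 in shMLL1. The order of the lines was the same on both days, with shNFIB first, then shKDM4D, shControl and shMLL1. Smad6 in shNFIB was 2.05-fold above shControl at day 0, 1.03 (0.85 to 1.22), a value just under 2-fold after quantile normalization, and 3.43-fold above it at day 5, 1.78 (1.52 to 2.04). The shKDM4D ratio reached 0.96 (0.69 to 1.23) at day 5. Skil, which encodes SnoN, a corepressor of Smad complexes, was at 4.14 and 1.36 in shControl, 4.74 and 0.978 in shKDM4D, 7.27 and 2.98 in shNFIB, and 5.51 and 1.82 in shMLL1. It fell in the 4 lines, with -1.61 (-1.81 to -1.41), -2.28 (-2.50 to -2.06), -1.29 (-1.45 to -1.13) and -1.60 (-1.73 to -1.47), the most in shKDM4D, whose change differed from that of shControl by -0.67 (-0.97 to -0.38). At day 5 shNFIB was 2.19-fold above shControl, 1.13 (0.90 to 1.36).

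The Id genes encode inhibitors of basic helix-loop-helix factors and are direct targets of BMP Smads. Id1 was at 26.1 and 29.0 in shControl, 37.6 and 34.8 in shKDM4D, 40.4 and 37.1 in shNFIB, and 34.9 and 39.2 in shMLL1. Id3 was at 27.5 and 27.5 in shControl, 34.8 and 36.5 in shKDM4D, 37.9 and 47.2 in shNFIB, and 24.2 and 35.3 in shMLL1. Neither passed 2-fold in any comparison, and Id1 lay above shControl on both days in every knockdown line, with ratios of 0.26 to 0.63. The ratios of Id3 to shControl at day 0 and day 5 were smaller than 2-fold in shKDM4D, 0.34 (0.22 to 0.45) and 0.41 (0.29 to 0.53), and in shNFIB, 0.46 (0.35 to 0.57) and 0.78 (0.66 to 0.90), and in shMLL1 went from -0.18 (-0.29 to -0.08) at day 0 to 0.36 (0.25 to 0.47) at day 5. Id2 was at 29.1 and 11.1 in shControl, 28.5 and 16.2 in shKDM4D, 40.2 and 26.9 in shNFIB, and 30.4 and 12.8 in shMLL1. It fell in shControl, -1.40 (-1.54 to -1.26), and shMLL1, -1.25 (-1.34 to -1.15), against -0.82 (-0.94 to -0.69) in shKDM4D and -0.58 (-0.69 to -0.47) in shNFIB. Its day 5 level in shNFIB was 2.43-fold above that of shControl, 1.28 (1.13 to 1.44), after 0.46 (0.37 to 0.56) at day 0. The day 5 levels thus followed the order shNFIB, shKDM4D, shMLL1, shControl, and the intervals of all 3 ratios to shControl lay above 0, the lowest being that of shMLL1, 0.21 (0.06 to 0.36).

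The knockdown lines differed in how many members stood apart from shControl, and all 6 comparisons share the shControl library of their day. The shNFIB line carried most of them. At day 0 Tgfb2, Inhba, Inhbb, Fst and Smad6 were higher and Tgfbi lower than in shControl, 5 members up and 1 down, or 14.7% and 2.94% of the 34 against 2.95% and 6.05% of all genes tested. At day 5 Tgfb2, Inhba, Inhbb, Bmp4, Smad6, Skil and Id2 were higher and Tgfbi and Tgfbr3 lower, 20.6% and 5.88% against 5.54% and 5.67%. The shares that were higher exceeded the background on both days, and the shares that were lower lay near or below it. They describe a list chosen with earlier results of these data known and test no enrichment. Tgfb2, Inhba, Inhbb and Smad6 were higher and Tgfbi lower on both days. The median of the 34 log2 ratios was 0.40 at day 0 and -0.01 at day 5, against 0.03 and 0.09 over all genes tested. Division by Gapdh changed the day 0 split from 5 and 1 to 17 and 1, while the share of all genes that were higher went to 19.7% and that of lower genes to 3.005%, and left that of day 5 at 7 and 2.

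In shMLL1 3 members were lower than in shControl at day 0, and 3 were higher and 2 lower at day 5. Bmp4, Ltbp2 and Fstl1 were lower and none higher at day 0, 8.82% against 7.43% of all genes, with 1.67% of all genes higher. At day 5 Inhba, Inhbb and Tgfbi were higher and Ltbp2 and Grem1 lower, 8.82% and 5.88% against 5.25% and 4.02%. These shares lay near the background. Divided by Gapdh, 1 member was higher and 6 were lower at day 5, against 3.56% and 7.74% of all genes. The median ratio was -0.09 at day 0 and -0.07 at day 5, against -0.07 and 0.07 over all genes.

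In shKDM4D 1 member passed 2-fold against shControl over both days. At day 0 none passed 2-fold, where 1.98% of all genes were higher and 4.26% lower, and the ratios ran from -0.88 for Tgfbi to 0.92 for Inhba. At day 5 Tgfb2 alone was higher and none was lower, against 1.88% and 4.57% of all genes. At this day Smad6, Inhba and Smad9 had ratios of 0.96, 0.91 and 0.88, just under the limit. After quantile normalization 4 members were past it, all higher, beside 2.55% of all genes. Across the 34 members the ratios to shControl at day 0 and at day 5, which come from different libraries, had Pearson correlations of 0.63, 0.79 and 0.66 for shKDM4D, shNFIB and shMLL1, against 0.52, 0.43 and 0.21 across the 11309 to 11356 genes with a ratio on both days. The correlations are descriptions, since genes are not independent and the 2 days of a line share its clone. They were not matched for read counts either. All 34 members exceeded an RPKM of 2 in at least 1 library, against 10370 of the 11513 genes.

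**Figure D3:**
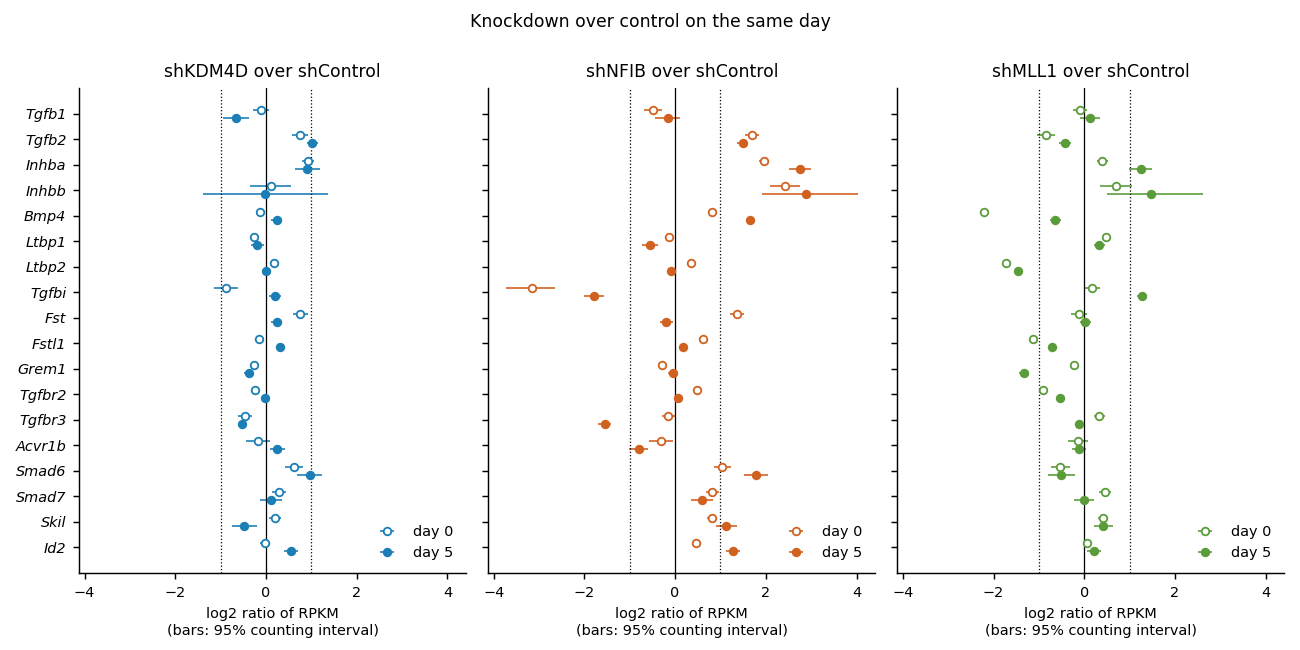
Log2 ratio of RPKM, knockdown over shControl on the same day, for the 18 members past 2-fold in at least 1 comparison, with open points for day 0, filled points for day 5, bars for the 95% counting interval and dotted lines at 2-fold. In shNFIB the points of Tgfb2, Inhba, Inhbb and Smad6 lie right of the upper line and those of Tgfbi left of the lower one on both days, and in shMLL1 those of Ltbp2 lie left of it.

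**Figure D4:**
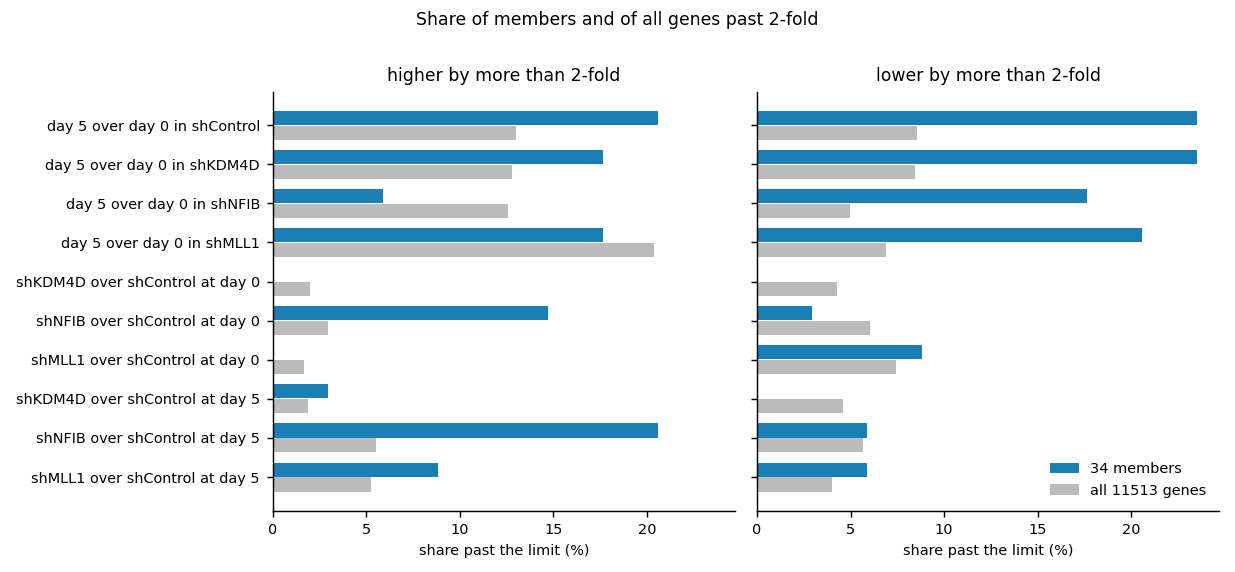
Share in percent of the 34 members (blue) and of all 11513 genes over an RPKM of 1 (grey) that were higher or lower by more than 2-fold in each of the 10 comparisons. The largest gaps between blue and grey are those of members higher in shNFIB than in shControl, 14.7% against 2.95% at day 0 and 20.6% against 5.54% at day 5, and of members lower at day 5 than at day 0 in each line. The members were chosen with earlier results of these data known, so the gaps test no enrichment.

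The 11 members under an RPKM of 1 in every library were the ligands Bmp2, Bmp6, Bmp7, Gdf10 and Gdf15, the antagonists Fstl3, Nog and Chrdl1, the receptors Acvr2b and Bmpr1b, and Id4. Bmp2, Bmp7 and Gdf10 had at most 2 reads in any library and Nog at most 5, which is not distinguishable from a count of 0 at this depth for the first 3. Bmpr1b, a BMP type I receptor of skeletal progenitors, had 62 and 74 reads in the shNFIB libraries, an RPKM of 0.557 and 0.783, and at most 2 reads in each of the other 6. Against the 1 read of shControl on either day, the log2 ratios were 6.47 (3.94 to 11.79) and 6.50 (3.97 to 11.82), and their width reflects that 1 read. Chrdl1, which encodes chordin-like 1, a BMP antagonist, had 2, 1, 0 and 0 reads at day 0 and 48, 70, 8 and 23 at day 5 in shControl, shKDM4D, shNFIB and shMLL1, so each line had more at day 5. Id4 had 29 reads in shMLL1 at day 0 and 1 at day 5, a ratio of -4.85 (-10.21 to -2.26), while shControl had 11 on each day and the other 2 lines 25 to 34. Gdf15, a stress-induced ligand, went from 3 to 20 reads in shMLL1 and from 1 to 7 in shControl, and Fstl3, which binds activins, stayed between 2 and 28 reads. Bmp6 had 2 to 13 reads over the libraries and Acvr2b, an activin type II receptor, 9 to 51.

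A second list, also chosen with earlier results known, held 54 other genes of the pathway, of which 41 exceeded an RPKM of 1. Over time 8, 9, 5 and 9 of the 41 rose and 4, 6, 7 and 6 fell in shControl, shKDM4D, shNFIB and shMLL1. Of all genes tested 13.0%, 12.8%, 12.6% and 20.4% rose and 8.56%, 8.44%, 4.96% and 6.89% fell in these lines. The rises in shNFIB and shMLL1 and the falls in shControl lay near these shares. Against shControl 8 were higher and 2 lower in shNFIB at day 0, beside 2.95% and 6.05% of all genes. At day 5 they were 6 and 1, beside 5.54% and 5.67%. In shKDM4D 4 and 4 were followed by 3 and 3, beside 1.98% and 4.26%, then 1.88% and 4.57%. In shMLL1 1 and 7 were followed by 6 and 4, beside 1.67% and 7.43%, then 5.25% and 4.02%. All 10 TGF-beta target genes on the list exceeded an RPKM of 1, and among them Ctgf and Cyr61 were higher in shNFIB than in shControl at day 0, with Ctgf so at day 5 as well. Ctgf, a matricellular growth factor gene, was at 16.4 and 6.91 in shControl, 23.6 and 4.95 in shKDM4D, 47.9 and 20.9 in shNFIB, and 24.9 and 19.4 in shMLL1. It was higher in shNFIB, by 1.54 (1.45 to 1.64) and 1.60 (1.43 to 1.77), and in shMLL1 at day 5, by 1.49 (1.33 to 1.65). Pmepa1, listed with the intracellular regulators because its protein sequesters receptor Smads, was at 14.3 and 5.79 in shControl, 20.9 and 7.66 in shKDM4D, 35.0 and 15.9 in shNFIB, and 18.9 and 7.81 in shMLL1. It fell in all 4 lines, with ratios of -1.45 to -1.14, and was higher in shNFIB by 1.29 (1.21 to 1.38) and 1.46 (1.31 to 1.60). Cyr61, a matricellular relative of Ctgf, was at 17.9 and 54.4 in shControl, 24.5 and 63.0 in shKDM4D, 47.0 and 63.3 in shNFIB, and 23.1 and 57.1 in shMLL1, and shNFIB exceeded shControl with 1.39 (1.28 to 1.51) at day 0, against 0.22 (0.13 to 0.31) at day 5. Tagln and Postn, contractile and matrix genes, moved over time in opposite directions in the 4 lines, with ratios of -4.58 to -3.12 for Tagln and 2.76 to 4.79 for Postn, and Postn at day 0 was lower than shControl in every knockdown, at 34.5, 15.6, 10.3 and 11.2 in shControl, shKDM4D, shNFIB and shMLL1. Acta2, the smooth muscle actin gene, was at 1280.1 and 478 in shControl, 1275 and 673 in shKDM4D, 1246 and 878 in shNFIB, and 845 and 289 in shMLL1 and fell in shControl, -1.42 (-1.45 to -1.40), and shMLL1, -1.55 (-1.57 to -1.52). Klf10, an early response gene of TGF-beta, was at 12.5 and 6.38 in shControl, 19.1 and 5.50 in shKDM4D, 16.8 and 12.1 in shNFIB, and 17.4 and 15.2 in shMLL1 and exceeded shControl in shMLL1 at day 5, 1.26 (1.12 to 1.40), where Tsc22d1, another response gene, was lower, -1.23 (-1.27 to -1.20), at 30.9 against 72.7.

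Among the extracellular regulators of the second list, Thbs1 and Dcn differed from shControl by more than 2-fold in shKDM4D on both days. Thbs1, which encodes thrombospondin 1, an activator of latent TGF-beta, was at 15.2 and 9.52 in shControl, 53.9 and 33.3 in shKDM4D, 98.5 and 40.7 in shNFIB, and 23.8 and 30.0 in shMLL1. It exceeded shControl on both days in shKDM4D, by 1.82 (1.76 to 1.89) and 1.81 (1.71 to 1.90), and in shNFIB, by 2.70 (2.63 to 2.76) and 2.10 (2.002 to 2.20), and at day 5 in shMLL1, by 1.66 (1.57 to 1.75). Dcn encodes decorin, a matrix proteoglycan that binds TGF-beta. It was at 3.72 and 31.8 in shControl, 0.693 and 3.03 in shKDM4D, 2.47 and 34.5 in shNFIB, and 3.13 and 92.2 in shMLL1, rose in all 4 lines, and was lower than shControl in shKDM4D, at -2.43 (-2.78 to -2.09) on day 0 and -3.39 (-3.55 to -3.24) on day 5. Bmper, an extracellular BMP modulator, was at 5.06 and 3.92 in shControl, 7.30 and 2.29 in shKDM4D, 15.2 and 6.11 in shNFIB, and 5.67 and 2.74 in shMLL1 and highest in shNFIB at day 0, 1.59 (1.45 to 1.73) over shControl. Nbl1, another BMP antagonist, was at 19.7 and 35.0 in shControl, 22.6 and 30.2 in shKDM4D, 19.0 and 10.96 in shNFIB, and 6.22 and 14.5 in shMLL1 and lower than shControl in shMLL1 on both days, -1.67 (-1.82 to -1.51) and -1.27 (-1.39 to -1.16), and in shNFIB at day 5, -1.67 (-1.85 to -1.505). Dlx5, a BMP target of skeletal cells, was at 7.05, 3.82, 2.94 and 1.80 at day 0 in shControl, shKDM4D, shNFIB and shMLL1, with ratios of -1.26 (-1.56 to -0.97) in shNFIB and -1.97 (-2.24 to -1.70) in shMLL1. Atoh8, a BMP target, was higher than shControl at day 0 in shKDM4D, 1.10 (0.92 to 1.29), and in shNFIB, 1.10 (0.92 to 1.29), at 13.3 and 13.3 against 6.18. Runx2, the osteoblast regulator, was lower in shMLL1 at day 5, -1.13 (-1.26 to -0.99), at 2.64 against 5.77. The ligand gene Gdf11 rose over time in shControl, 1.04 (0.92 to 1.15), and shKDM4D, 1.55 (1.40 to 1.71), and Smurf1, a ubiquitin ligase for Smads, fell in shNFIB, -1.04 (-1.15 to -0.93), and shMLL1, -1.04 (-1.12 to -0.96).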

How the data were processed

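The 8 deposited files hold 1 RPKM value per gene and library, which the authors made from stranded SMARTer libraries by mapping reads to GRCm38 (mm10) in CLC Genomics Workbench. Whether CLC counted by strand is not given in the sources used here, so overlapping and antisense genes may share reads. The study's methods normalize by quantiles before fold changes. The deposited RPKM were compared as they stand, with quantile normalization as an alternative. The members and all gene lists were chosen with earlier results of these data known.

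Reads were recovered as RPKM times exon length (GENCODE M21) times mapped reads, and 96.2% to 96.6% of low values came out whole within 0.02 of a read. For Ltbp1, Ltbp3 and Smad2, where that length did not give whole reads, the length was taken from the steps of the values. For each of 10 comparisons the log2 ratio of RPKM was computed without a pseudocount, with an exact (Clopper-Pearson) 95% interval given both read counts. These scripts were tested on simulated data. Genes at an RPKM over 1 somewhere in the 8 libraries were compared, 11513 of 41325. Members past 2-fold in any comparison are described by library and the others by range, and other pathway genes are named if past 2-fold with an RPKM over 5, except that some are not reported here. Marker lists not given above, those of endothelial, haematopoietic, epithelial, skeletal muscle and osteoblast cells, summed to an RPKM of at most 1.80 in any library. The chondrocyte list summed to 71.8 to 194. In it Sox9 was at 48.4 to 188, Col2a1 at 0.264 to 27.5, Comp at 0.0253 to 0.506 and Acan at 0 to 0.00619. Alternatives were the filter, a pseudocount, 4 scalings, protein coding genes only and, chosen after seeing the data, a whole interval past 2-fold. Python 3.11.15, numpy 2.4.6, pandas 2.3.3, scipy 1.17.1 and matplotlib 3.10.9 were used.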

Additional observations from a re-analysis of the deposited data

Results flagged for a closer look

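Fst, the gene of the activin-binding protein follistatin, changed from day 0 to day 5 in opposite directions in different lines. Its log2 ratio was -0.25 in shNFIB against 1.31 in shControl and 1.45 in shMLL1. Each line has 1 library per day, so the difference was not tested.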

How the results depend on the processing

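No called ratio changed sign under any alternative, and 0.1 added to each RPKM, an RPKM over 2 and protein coding genes only moved no count of members past 2-fold by over 1.5 times. With no filter on RPKM, so that 45 members and 41325 genes were counted, 11 members were higher over time in shMLL1 and 6 in shNFIB, where 16.2% and 10.8% of all genes were, and against shControl 3 were higher and 2 lower in shKDM4D on either day, 8 and 5 in shNFIB at day 0, 11 and 4 at day 5, and 5 and 5 in shMLL1 at day 5, with 1 higher at day 0. Of all genes 4.28% to 9.23% were higher and 5.47% to 7.17% lower in these knockdown comparisons. With 1 added to each RPKM, 1 was higher over time in shNFIB and 5 were lower in shKDM4D, beside 6.15% and 4.925% of all genes. At day 5 0 were then higher in shKDM4D and 1 in shMLL1, beside 0.486% and 2.87% of all genes. Over time in shNFIB, 1 was higher after quantile normalization, after median-of-ratios scaling, without the rRNA-like genes, after division by Gapdh and with the whole interval past 2-fold. Under the 4 scalings 7.30% to 11.5% of all genes were higher there. Quantile normalization gave 4 higher in shKDM4D at day 5, beside 2.55% of all genes. Division by Gapdh gave 10 lower over time in shNFIB and 4 in shKDM4D, 17 higher in shNFIB at day 0, 1 lower in shKDM4D and 5 in shMLL1 at day 0, 2 higher in shKDM4D at day 5, and 1 higher and 6 lower in shMLL1 at day 5, while the shares of all genes moved as well, to between 1.01% and 23.5% higher and 3.005% and 17.5% lower. With the whole interval past 2-fold, 0 were higher in shKDM4D and 1 in shMLL1 at day 5, and no share of all genes was computed for that limit. Of 74 called ratios of the 18 members, 2 were lost with 0.1 added, 16 with 1 added, 2 by median-of-ratios scaling and 2 without the rRNA-like genes, with 0 gained in each. Gapdh lost 8 and gained 14, and quantiles lost 4 and gained 3. The median over all genes moved by over 0.1 with quantiles (-0.14 over time in shNFIB, -0.27 in shMLL1), median-of-ratios scaling (-0.11, -0.21), without the rRNA-like genes (-0.11 in shControl and shMLL1) and by Gapdh (-0.56 to 0.64). The filter and the pseudocount act on genes with few reads by construction, and for the scalings the cause was not tested. No paired analysis was possible because each condition has 1 library, for which leaving out a replicate was not possible either.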
